A study of Mus musculus with 3 samples.

Results

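Hist2h2be is the mouse gene for H2BE, a variant of the nucleosome protein H2B that is known from olfactory sensory neurons. The gene was chosen by its symbol, as 1 row of the 34617 gene rows in the deposited expression table. No rule on its values was used, but earlier results of these data were known. The table covers 2 RNA libraries from the main olfactory epithelium of mice aged 4 weeks. The mOSN library came from sorted EGFP-positive cells of C57BL/6J mice carrying OMP-ires-EGFP, in which the green fluorescent protein is made together with olfactory marker protein (Omp), a protein of mature olfactory neurons. The O/Tet3 library came from sorted cells of FVB mice with OMP-tTA and tetO-Tet3-GFP, in which a transactivator at Omp switches on a transgene for Tet3, an enzyme that oxidises 5-methylcytosine. Both genotypes thus rest on the Omp locus, which is active late in neuron maturation. How many animals were pooled is not stated. A sample of immunoprecipitated DNA from OMP-tTA / tetO-Tet3-GFP mice is not analysed here.

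Most H2B genes are replication-dependent: their short RNAs are made in S phase, end in a stem-loop in place of a poly(A) tail, and are processed by a dedicated set of factors. H2BE differs from the common H2B proteins at a few residues and accumulates in olfactory neurons that no longer divide. Earlier work tied it to the activity of the odorant receptor a neuron carries, with more H2BE in less active neurons, and to how long a neuron lives. The RNA here was depleted of ribosomal RNA and not selected for poly(A), so histone RNAs without a tail could enter the libraries too.

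With a single library in each group, differences here have no test, no error and no replicate check, and genotype, strain and library cannot be told apart. The table gives log2(value + 1), and values here are back on the linear scale. Their unit is not named in the file. Of the values above 0.01, 99.4% in mOSN and 99.3% in O/Tet3 have no more than 6 significant digits, as Cuffdiff prints FPKM, a unit per transcript length, and levels of different genes are set side by side on that reading only. Read totals are not in the file. Steps between low values put 1 read at a 1.88-fold larger value in O/Tet3 than in mOSN, so a given value rests on fewer reads there. Tet3 stood at 3.72 in mOSN and 145 in O/Tet3, so that the high Tet3 value lies in the column named for the transgene.

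Hist2h2be was at 176 in the mOSN library and at 16.1 in the O/Tet3 library. The mOSN library is the high one, and the O/Tet3 value was 10.9-fold lower (log2 ratio of value + 1, −3.37). In mOSN it was the 85th highest of all rows, above 99.6% of the rows with a value over 0. In O/Tet3 it was in place 2355, above 87.9% of such rows. For scale, these values are 6615 and 321 times that of 1 read of an odorant receptor gene. That value was about 0.0501 in O/Tet3, from the steps of receptor values there. For mOSN it was not read from that library but derived as 0.0266, which is the O/Tet3 value divided by 1.88. Transcripts of another length have another value per read, so these are not read counts of Hist2h2be.

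A row was compared where it reached a value of 1 in a library, and called when value + 1 differed at least 2-fold. By this rule 12.0% of the 12943 compared rows were lower in O/Tet3 and 16.5% were higher (1552 and 2135 rows). Once the median log2 ratio of rows that reach 1 in each library, 0.21, was subtracted, 1953 rows were lower and 1464 higher. Hist2h2be was among the lower rows, and 87 compared rows (0.672%), 12 of them odorant receptors, had a smaller log2 ratio. Another 151 rows had an mOSN value within 2-fold of that of Hist2h2be, from 87.9 to 351. Of those, 55 were lower and 13 higher in O/Tet3, and their median log2 ratio was −0.57. These rows were picked by a high mOSN value alone, so part of the excess of lower rows can follow from the pick. Only 7 of the 151 had a log2 ratio as small as Hist2h2be. They were Ric8b, which encodes a chaperone and exchange factor for the olfactory G protein, the small RNA Snord21 and 5 rows with clone names (chosen after their values were seen), and 5 of the 7 are listed at 0 in O/Tet3.

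**Figure D1:**
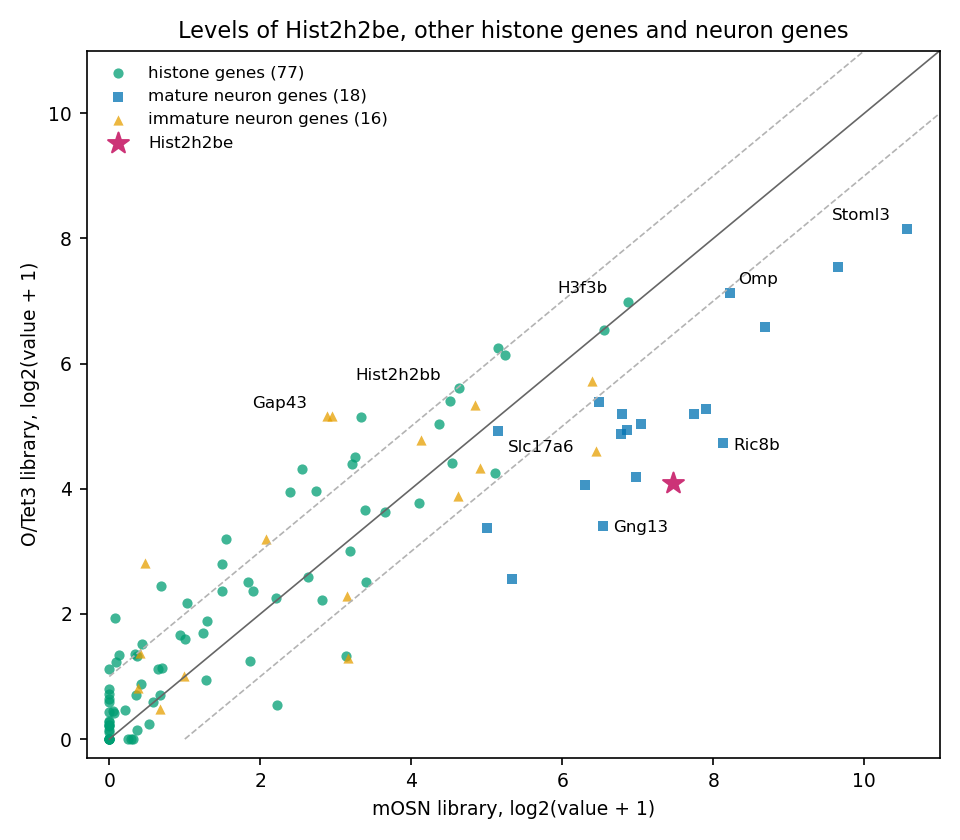
Log2(value + 1) in the mOSN library (x axis) and the O/Tet3 library (y axis) for Hist2h2be (star), 77 other histone genes (circles), 18 mature neuron genes (squares) and 16 immature neuron genes (triangles); 1 point per gene. The solid line marks equal values and the dashed lines a 2-fold difference of value + 1. Hist2h2be, at 176 and 16.1, lies at the edge of the mature neuron genes, of which only Ric8b is farther below the solid line. It lies away from the other histone genes.

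Among the H2B genes, Hist2h2be was the highest in mOSN and the second highest in O/Tet3. Hist2h2bb, an ordinary H2B gene, stood at 23.8 in mOSN and 47.7 in O/Tet3. In mOSN Hist2h2be stood 7.37-fold above Hist2h2bb, and in O/Tet3 Hist2h2bb stood 2.97-fold above Hist2h2be. The order of these genes was thus opposite in the libraries. Hist1h2bc stood at 16.1 in mOSN and 12.7 in O/Tet3. Hist2h2be exceeded it 10.9-fold in mOSN and 1.27-fold in O/Tet3.

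All 18 other H2B genes on the list have a row, and 8 had a value of at least 1 in a library. Of those 8, 4 passed only through the O/Tet3 library, so that their difference follows in part from the rule. Beside the 16.5% of all compared rows, 5 of the 8 were higher in O/Tet3 and 0 were lower. Their median log2 ratio was 1.07, against 0.21 over all compared rows. It was 0.51 over the 4 genes with a mean value of at least 1, and 0.38 over all 18 with no floor. Of the 4 genes that reached 1 in each library, 1, Hist1h2be, was called higher. Hist1h2be was at 1.82 and 5.92, Hist1h2bn at 0.272 and 1.56, Hist1h2bg at 0.0896 and 1.53, and Hist1h2bk at 0.0637 and 1.34 in mOSN and O/Tet3. Hist1h2ba, the testis H2B gene, is listed at 0 in mOSN and was at 1.17 in O/Tet3. Hist1h2bb was at 3.61 and 3.76. The 10 genes that were not compared had values below 1 in both libraries, among them Hist3h2bb-ps, a pseudogene by its symbol.

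The summed value of these 18 H2B genes was 47.2 in mOSN and 79.0 in O/Tet3. With Hist2h2be added the sums were 223 and 95.0. Hist2h2be thus made up 78.8% of the summed H2B value in mOSN and 16.9% in O/Tet3. Hist2h2bb made up 10.7% and 50.2%. These sums take genes listed at 0 as 0, although a 0 in such a table can be a failed estimate. Many H2B coding sequences are near-identical, and how reads shared between them were assigned is not given, so single members are uncertain.

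**Figure D2:**
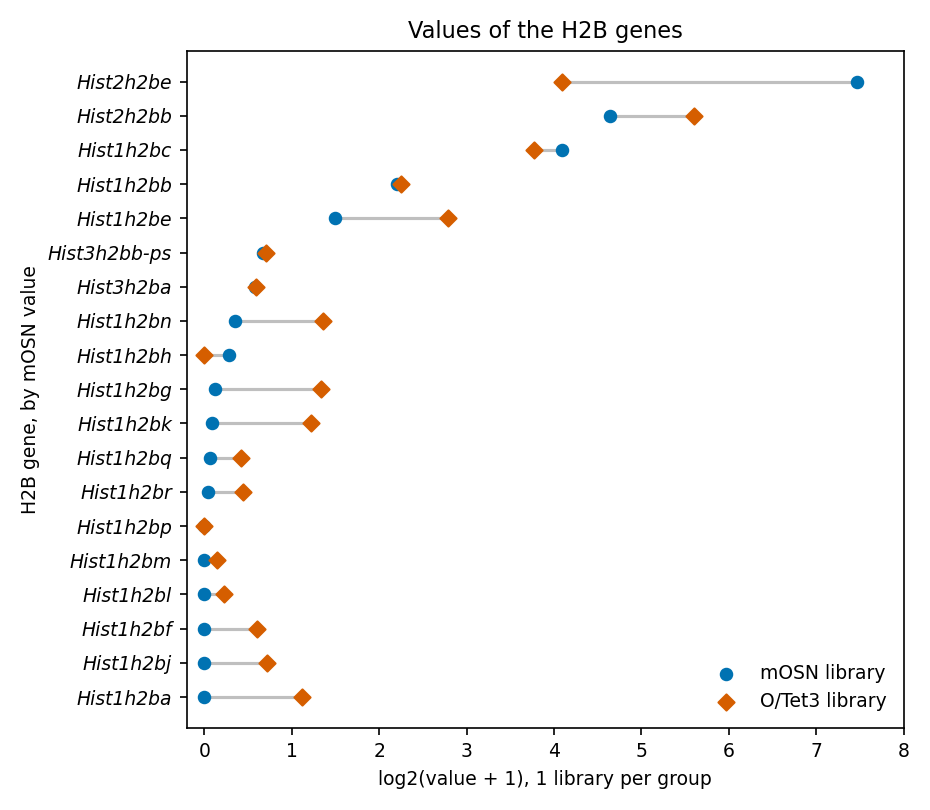
Log2(value + 1) of the 19 H2B genes, sorted by their mOSN value; circles are the mOSN library, diamonds the O/Tet3 library, and the grey line joins the values of a gene. Hist2h2be is the only H2B gene with a value above 100, and it is so in mOSN only, while most other H2B genes have the diamond at or to the right of the circle.

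RefSeq (GRCm38.p6) places Hist2h2be on chromosome 3 in the Hist2 cluster. Its gene spans 2667 bases there, against 384 to 664 bases for the other cluster genes. Among all 18 other H2B genes the median span was 486.5 bases, and 5 spanned over 1000 bases. Hist1h2bq and Hist1h2br have the same span, 3788 bases, and may be a single annotated gene counted under both symbols. Spans include introns and long isoforms, and the gene models behind the deposited table are not given in the sources used here.

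The genes on either side of Hist2h2be differed from each other. Hist2h2ac, an H2A gene whose annotated start faces Hist2h2be, stood at 11.6 in mOSN and 11.4 in O/Tet3. Hist2h2ab, the H2A gene beyond it, was at 1.92 and 8.16, which is 4.24-fold higher in O/Tet3. Bola1, a gene outside the cluster on that side, was at 2.17 and 1.79. On the other side, the H3 gene Hist2h3c2 was at 3.65 and 0.460, 7.93-fold lower in O/Tet3, and its near-copy Hist2h3c1 was at 7.78 and 1.51, 5.14-fold lower. These H3 genes were the only other compared histone rows called lower. Their reads may not be separable from each other. The H2A pair Hist2h2aa2 and Hist2h2aa1, also near-copies, was at 33.4 and 18.1 and at 22.2 and 20.3. Hist2h4 was at 5.19 and 5.05, and Hist2h3b at 0.558 and 1.18. The last gene of the cluster is Hist2h2bb, described above, and Fcgr1 beyond it, an immunoglobulin receptor gene of macrophages, was at 0.112 in mOSN and is listed at 0 in O/Tet3.

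The stretch between Hist2h2ac and Hist2h2be is shown because the genes at its ends differed so unequally between the libraries, and the stretch before Hist2h2bb because that gene took first place among H2B genes in O/Tet3. Both are from the RefSeq promoter table (GRCm38.p6), read toward the Hist2h2ac or Hist2h2bb start. The table has no entry for Hist2h2be. The stretch before Hist2h2ac is chr3:96220881-96221071, minus strand, 191 bases, which is the whole gap between the annotated genes. The stretch before Hist2h2bb is chr3:96269450-96269699, plus strand, 250 bases. Capitals mark matches, on either strand, to the CCAAT box (CCAAT), the TATA box (TATAAA) and the octamer (ATTTGCAT), motifs known from histone promoters.
Hist2h2ac: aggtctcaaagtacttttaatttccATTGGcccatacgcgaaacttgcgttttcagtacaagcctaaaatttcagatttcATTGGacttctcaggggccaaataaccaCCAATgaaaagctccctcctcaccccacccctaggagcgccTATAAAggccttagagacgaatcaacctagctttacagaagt
Hist2h2bb: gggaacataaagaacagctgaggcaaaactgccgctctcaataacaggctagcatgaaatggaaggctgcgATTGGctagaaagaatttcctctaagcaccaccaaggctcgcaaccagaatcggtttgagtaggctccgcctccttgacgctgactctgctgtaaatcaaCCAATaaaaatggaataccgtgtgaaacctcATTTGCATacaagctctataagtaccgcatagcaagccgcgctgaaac

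The gap beside Hist2h2be held 3 matches to CCAAT and 1 to TATAAA. The TATAAA match reads toward Hist2h2ac, and 0 read toward Hist2h2be. Of 32851 promoters, 28.5% hold at least 1 CCAAT and 9.51% at least 1 TATAAA over the same 191 bases. The gap held 0 matches to the octamer (1.29% hold at least 1). In the full 250 bases before Hist2h2ac, 1 octamer match lies in the 59 bases that overlap the annotated Hist2h2be gene. The stretch before Hist2h2bb held 2 matches to CCAAT, 1 to the octamer and 0 to TATAAA. Over 250 bases, 33.8% of promoters hold at least 1 CCAAT, 1.60% at least 1 octamer and 12.4% at least 1 TATAAA. Neither stretch held TAATTA, a core motif of homeodomain factors, which 3.57% of promoters hold over 191 bases and 4.84% over 250 bases. A match of letters is a description and not a binding site. The matches overlapped each other at 0 bases in both stretches.

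**Figure D3:**
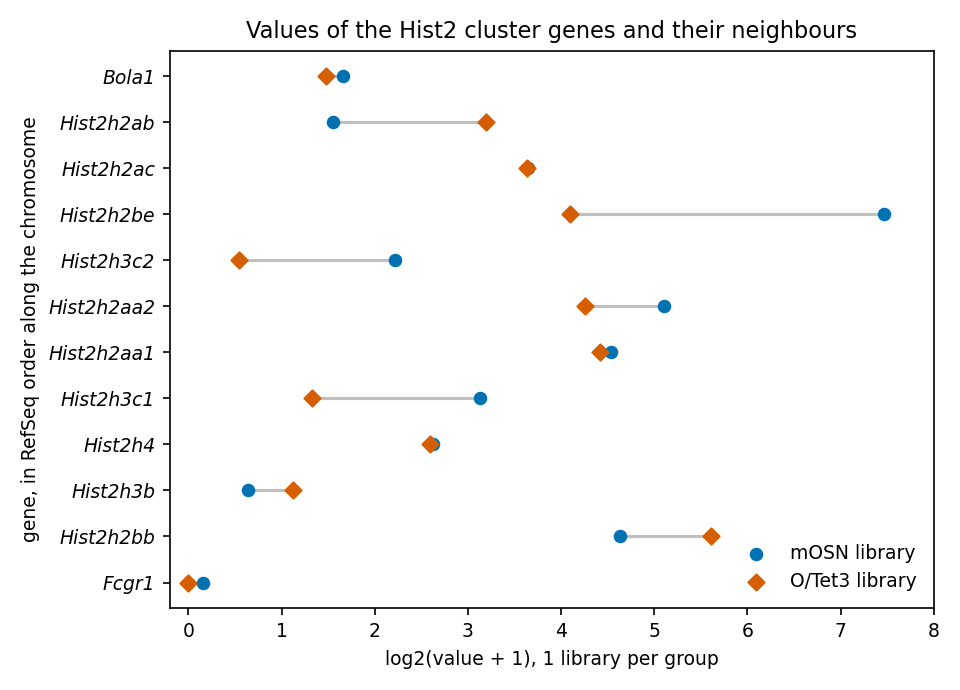
Log2(value + 1) of the 10 Hist2 cluster genes and a flanking gene on each side, set by name, in RefSeq order from top to bottom. Circles are the mOSN library and diamonds the O/Tet3 library. Hist2h2be has the longest line, from 176 to 16.1, and the symbols of its neighbour Hist2h2ac overlap.

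Of 92 histone rows in the table, 48 besides Hist2h2be were compared. None of the 92 exceeded Hist2h2be in mOSN, and 13 did so in O/Tet3. None had a smaller log2 ratio. Hist2h2be made up 23.9% of the summed value of all histone rows in mOSN and 2.01% in O/Tet3.

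Of 48 H2A, H3, H4 and H1 genes listed as replication-dependent, some of them testis genes, 30 were compared. Of these, 7 passed through O/Tet3 only and 2 through mOSN only. Of the 30, 9 were higher and 2 lower, beside 16.5% and 12.0% of all compared rows. The median log2 ratio was 0.63, or 0.42 after the shift of 0.21 was subtracted and 0.39 with no floor. Of 13 H4 genes, 5 were higher and 0 lower, and 2 of the 13 passed through O/Tet3 only. Hist1h4d, with the highest H4 value, was at 21.8 and 41.1, Hist1h4c at 8.54 and 21.8, Hist4h4 at 4.88 and 18.8, and Hist1h4h at 5.70 and 14.6. Hist1h4j was at 0.605 and 4.48, and Hist1h4n at 8.08 and 7.004. Of 6 linker histone (H1) genes, 3 were higher and 0 lower. Hist1h1c was at 9.06 and 34.5 and reached 1 in each library. The other higher H1 genes passed through O/Tet3 only, Hist1h1b at 0.354 and 1.88 and Hist1h1t, the testis linker histone gene, at 0.0553 and 2.82. Hist1h1e was at 19.6 and 31.7 and Hist1h1a at 1.44 and 0.932, neither of them called. Of 6 compared H2A genes, Hist2h2ab was higher and 0 were lower, and the median log2 ratio was −0.35. Hist1h2ac was at 2.64 and 1.37. Of 5 compared H3 genes, 0 were higher and 2 lower, the Hist2h3c1 and Hist2h3c2 pair of the cluster, of which Hist2h3c2 passed through mOSN only. The 12 H3 genes summed to 14.4 in mOSN and 8.05 in O/Tet3. Hist1h3e was at 1.01 and 2.02 and Hist1h3i at 0.629 and 1.20.

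Replacement variants, which are made outside S phase and are the usual histone supply of neurons, differed less than Hist2h2be. Of 9 compared, 3 were higher and 0 lower, beside 16.5% and 12.0% of all compared rows. The median log2 ratio was 0.46, or 0.25 after the shift of 0.21 was subtracted and 0.27 with a floor of 5 or none. H3f3b, which encodes H3.3, stood at 116 in mOSN and 126 in O/Tet3. Hist2h2be was at 151% of H3f3b in mOSN and at 12.7% in O/Tet3. H2afy, for macroH2A, was at 93.02 and 91.9, H2afz, for H2A.Z, at 34.4 and 75.04, and H3f3a at 36.7 and 69.7. H2afv was at 8.27 and 20.02 and H2afj at 1.04 and 3.49, while H2afy2, another macroH2A gene, was at 9.58 and 4.68.

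Genes that process replication-dependent histone RNA were also measured. Of 9 compared, 2 were higher and 0 lower, beside 16.5% and 12.0% of all compared rows, and the median log2 ratio was 0.61. Slbp, which binds the histone stem-loop, stood at 9.86 in mOSN and 26.5 in O/Tet3. Lsm10, a part of the U7 particle that cleaves histone RNA, was at 0.291 and 2.80 and passed through O/Tet3 only. Cpsf3, the nuclease of the cleavage step, was at 5.46 and 8.84, Cpsf2, its partner, at 6.93 and 10.7, Sympk, their scaffold, at 5.83 and 5.68, Casp8ap2 at 4.95 and 6.11, and Zfp473, which interacts with the U7 particle, at 1.22 and 0.373.

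Of 21 progenitor and replication genes, 8 were compared, 4 of them through O/Tet3 only. Of the 8, 2 were higher and 0 lower (median log2 ratio 0.58), beside 16.5% and 12.0% of all compared rows. Both higher genes passed through O/Tet3 only: the cyclin Ccne2 was at 0.399 and 2.84, and the helicase subunit Mcm6 at 0.366 and 2.48. Pcna, the polymerase clamp, which also serves DNA repair, was at 18.4 and 33.1 and in O/Tet3 above Hist2h2be. The nucleotide synthesis genes Rrm1 and Tyms were at 3.40 and 1.94 and at 1.43 and 1.34. The proliferation marker Mki67 was at 0.144 and 0.0517, the topoisomerase Top2a at 0.491 and 0.793, and the ribonucleotide reductase gene Rrm2 was at 0.190 in mOSN and is listed at 0 in O/Tet3. Summed over the 21 genes, the values were 29.0 and 51.05. Their part in the histone values was not tested.

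Hist2h2be was set against 18 genes of mature olfactory neurons, which sense odorants and carry the signal. All 18 reached a value of 1 in each library. Of them 17 were lower in O/Tet3 and 0 higher, against 12.0% of all compared rows lower, and the median log2 ratio was −2.10. Their median fold was 4.32-fold lower, beside 10.9-fold for Hist2h2be, whose log2 ratio was 1.27 below their median (difference −1.27). Of the 18, 17 had a larger log2 ratio than Hist2h2be, and 1, Ric8b at 279 and 25.4, had a smaller one. In bulk samples, fewer cells of a type and less RNA per cell cannot be told apart.

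Levels among these genes moved past Hist2h2be in their order. In mOSN 7 of the 18 were above Hist2h2be, and in O/Tet3 14 were. Stoml3, a stomatin of the olfactory cilia, was at 1518 and 285, the G protein beta subunit gene Gnb1 at 800.3 and 186, and Gnal, for the olfactory G protein alpha subunit, at 411 and 94.96. Gng13, the gamma subunit gene, was at 91.9 and 9.63. Omp was at 298 and 139, so that Hist2h2be was at 59.02% of Omp in mOSN and at 11.5% in O/Tet3. Slc17a6, for the vesicular glutamate transporter of these neurons, was the gene within 2-fold of value + 1, at 34.4 and 29.4.

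Genes of neurons still maturing included members of either direction. Of 14 compared, 4 were higher and 2 lower, beside 16.5% and 12.0% of all compared rows, and the median log2 ratio was 0.25. 3 of the 14 passed through O/Tet3 only. Gap43, a growth cone protein, was at 6.41 and 34.8, and the neuronal transcription factor Sox11 at 0.383 and 6.05. Stmn4, a microtubule regulator, was at 86.4 and 23.3, and Dpysl5, a growth cone protein, at 7.98 and 1.46. Ncam1 was at 82.7 and 51.7 and Stmn2 at 27.7 and 39.3. The summed value of the 16 genes was 301 in mOSN and 266 in O/Tet3. How far the share of immature neurons bears on the Hist2h2be values was not tested.

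Hist2h2be is known to be tied to neuronal activity, with more H2BE in less active neurons. Genes that respond to odorant-driven activity were therefore given beside it. The list does not separate genes that rise with activity from genes that fall. Of 7 compared, 4 were lower and 2 higher (median log2 ratio −1.92), beside 12.0% and 16.5% of all compared rows. Kirrel2, for an adhesion molecule, was at 57.1 and 3.47, which is 16.4-fold lower and the only log2 ratio of the list below that of Hist2h2be. Lrrc3b was 15.2-fold lower, at 25.6 and 1.68. The calcium-binding protein gene S100a5 was at 1356 and 235, and Kirrel3, which passed through mOSN only, at 4.75 and 0.523. Pcp4l1 was not called, at 200.1 and 99.6. Calb2, for calretinin, was at 39.7 and 108, and the protocadherin gene Pcdh10 at 8.51 and 28.2. Calb2 and Pcdh10 were thus the members with the high value in O/Tet3.

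Immediate early genes, the fast response to activity and stress, were called at shares near those of all rows. Of 9 compared, 2 were higher and 1 lower (median log2 ratio −0.06), beside 16.5% and 12.0% of all compared rows. Fos was at 20.4 and 19.5, Jun at 22.8 and 8.02, Dusp1 at 10.8 and 5.99, Junb at 1.59 and 5.49, and Btg2 at 3.29 and 17.5.

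**Figure D4:**
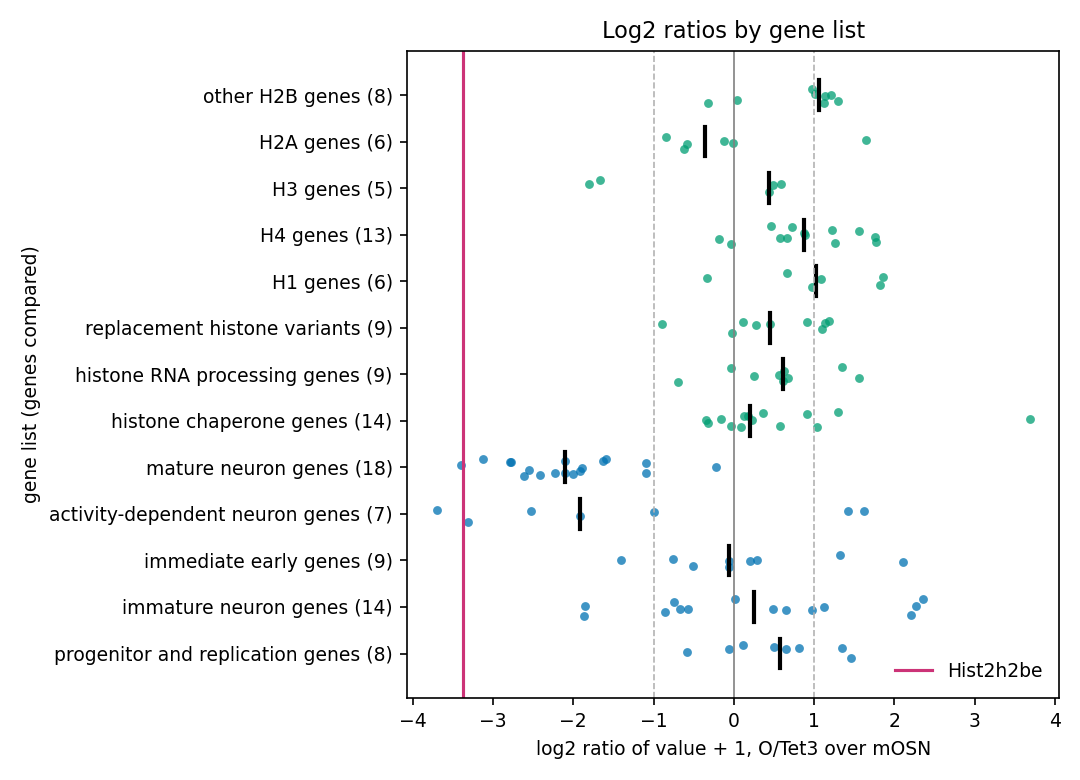
Log2 ratio of value + 1, O/Tet3 over mOSN, for each compared gene of 13 lists; each point is a gene, black bars are list medians, dashed lines mark 2-fold and the vertical coloured line marks Hist2h2be at −3.37. The line passes at the low end of the mature and activity-dependent neuron genes, and no histone gene, histone RNA processing gene or chaperone gene lies to its left.

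Defining markers of other cells of the epithelium were below Hist2h2be in mOSN in every case. In O/Tet3, 1 of them, Hba-a2, was above Hist2h2be. The 7 sustentacular cell markers summed to 29.8 in mOSN and 14.4 in O/Tet3. Of 5 compared, Ugt2a1 was lower, at 15.6 and 2.53, and 0 were higher, beside 12.0% and 16.5% of all compared rows. Sec14l3 was at 4.79 and 5.38, Cbr2 at 3.67 and 3.65, Cyp2g1 at 2.89 and 1.76, and Krt18 at 2.33 and 1.04. The 8 measured basal, gland and microvillous cell markers summed to 3.87 and 3.64, and 3 were compared, each through 1 library only. Of the 3, 1 was higher and 2 were lower, beside 16.5% and 12.0% of all compared rows. Pou2f3, of microvillous cells, was higher, at 0.582 and 2.90, while Ascl3 at 1.58 and Cftr at 1.02 in mOSN are listed at 0 in O/Tet3. The basal cell markers Krt5, Krt14 and Trp63 were at 0.116, 0.0645 and 0.0261 in mOSN and are listed at 0 in O/Tet3. The 10 glia, blood and vessel markers summed to 66.5 and 40.7, most of it from the hemoglobin genes Hba-a2 at 39.9 and 21.03, Hba-a1 at 13.97 and 15.3, and Hbb-b1 at 5.95 and 3.02. Of 5 compared, 1 was lower and 0 were higher, beside 12.0% and 16.5% of all compared rows. Fabp7, of olfactory ensheathing glia, was the lower one, at 4.78 and 0.0607. The vessel marker Pecam1 was at 0.121 and 0.508, and Cldn5 is listed at 0 in both libraries. Their part in the Hist2h2be values was not tested.

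The 6 genes nearest to Hist2h2be by distance over the log2(value + 1) of both libraries, small RNAs, receptors and unnamed symbols left out, were Umodl1, Exoc6b, Hint1, Ric8b, Ell3 and Slc8a1. With 2 libraries this likeness means nearby values in both libraries and no more, and it does not secure a similar ratio. Umodl1, a gene known from mature olfactory and vomeronasal neurons and a member of the mature list, was nearest (distance 0.50), at 124 and 17.2. Exoc6b, for a part of the exocyst, was at 108 and 22.3, Hint1 at 101 and 21.9, Ell3 at 123 and 27.97, and the sodium-calcium exchanger gene Slc8a1 at 89.97 and 15.2. Ric8b was the nearest in its ratio, 10.96-fold lower against 10.9-fold for Hist2h2be. The folds of the 6 genes ran from 4.39 to 10.96.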

How the data were processed

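Total RNA of sorted cells was depleted of ribosomal RNA and made into 1 library per group, per the labels' protocols. Bowtie, Bowtie2, Cuffdiff and mm9 are named in the submitters' processing notes, without versions or roles; annotation, strand setting and treatment of shared reads are not given in the sources used here. The authors deposited log2 values, found from the file to be log2(value + 1), for 34617 rows, and a log2 ratio column that equals O/Tet3 minus mOSN within 8.0e-14. Columns were assigned by name. The design allowed no test. Linear values, log2 ratios (pseudocount 1), folds of linear values, ranks, list counts and medians were computed with Python 3.11.15, pandas 2.3.3 and numpy 2.4.6, and the counting was tested on simulated data. Of 207 listed genes, 205 have a row (Gfy and Obp2a do not match). Neighbours and promoters are from RefSeq GRCm38.p6 tables, matched by symbol or synonym. Hist2h3c2, Hist2h3c1 and Hist2h3b were assigned by hand to the RefSeq symbols H3c15, H3c14 and H3c13. The flanking genes Bola1 and Fcgr1 were set by name and not searched by position.

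Hist2h2be and the lists were chosen with earlier results of these data known. Named were Omp and Tet3, H2B genes with a value of at least 1, up to 4 members of each other list with the highest value and 2 with the largest ratio each way, Hist2 cluster genes, and the 6 nearest genes; some listed genes named beyond this rule were chosen as defining markers after their values were seen. Alternatives were pseudocounts, floors, centring and a 3-fold call.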

Additional observations from a re-analysis of the deposited data

How the results depend on the processing

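No paired analysis was possible because neither group has a second library. None of these alternatives changed the sign of the Hist2h2be ratio or of the 4 list medians where these were evaluated. The mature neuron median was not evaluated when centred on itself, where its sign has no meaning. Of 47 alternative values, 14 stayed within the bounds (equal to 2 decimals, or a count within 1.5 times) and 33 did not. The Hist2h2be log2 ratio was −3.44 with a pseudocount of 0.1, −3.45 with none, −3.58 centred on the median of rows that reach 1 in each library, and −1.27 centred on the mature neuron genes. The same 4 settings gave the other H2B median as 1.91, 1.70, 0.86 and 3.17, that of the other replication-dependent histones as 0.87, 0.92, 0.42 and 2.73, and that of replacement variants as 0.68, 0.72, 0.25 and 2.56. The first 3 gave the mature neuron median as −2.11, −2.11 and −2.31. With a floor of 5, with no floor and with a floor of 1 on the mean, the H2B median was 0.97 (3 genes), 0.38 (18 genes) and 0.51 (4 genes), and that of the other replication-dependent histones 0.66, 0.39 and 0.66. The replacement variant median was 0.27 with a floor of 5 and with no floor. Higher and lower rows numbered 1401 and 793 with a floor of 5, 745 and 673 at 3-fold, and 11605 and 112 centred on the mature neuron genes. A stricter floor or fold counts fewer rows by construction. Centring on the mature neuron genes shifts every ratio by the size of their median (−2.10). With the 0.21 subtracted, 42.8% of called rows were higher in place of 57.9%. Depth limits what can be said of H2B genes with the lowest values, such as Hist1h2br at 0.0319 in mOSN. The derived value of 1 receptor read there is 0.0266.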

Other observations

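Histone chaperones, the proteins that carry histones to and from DNA, were measured but belong to none of the comparisons above. Of 14 compared, 3 were higher in O/Tet3 and 0 lower, beside 16.5% and 12.0% of all compared rows, and the median log2 ratio was 0.20, against 0.21 over all compared rows. Nap1l5, a nucleosome assembly protein gene that is imprinted, stood at 8.10 in mOSN and 116 in O/Tet3, Nasp, a chaperone of H3 and H4, at 7.76 and 20.5, and Anp32e, which removes H2A.Z, at 56.5 and 117. Nap1l1 was at 64.7 and 63.1, Atrx at 55.9 and 63.2, Hira, which deposits H3.3, at 15.4 and 12.1, and Daxx at 3.85 and 2.82.

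Of 14 histone rows outside the lists, 1 had a value of at least 1, the H2A gene Hist1h2al, at 9.73 in mOSN and 7.21 in O/Tet3 (named after its value was seen).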
